A study of Homo sapiens with 4 samples.

Results

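The polypyrimidine tract binding proteins are the 3 paralogous RNA-binding proteins encoded by PTBP1, PTBP2 and PTBP3. Skipped-exon events were taken as members when their middle exon lay inside 1 of these genes on the same strand, by the GENCODE release 29 annotation of hg38. The rule found 11 events with 10 different middle exons, of 44447 events and 37641 middle exons in the series. PTBP1 held 5 events over 4 exons, and PTBP2 and PTBP3 held 3 exons each. No member exon lay in a further gene on its strand. Of the 10 exons, 9 matched an annotated exon exactly and 7 had a length that is not a multiple of 3, so that skipping them shifts the reading frame where they are coding.

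Polypyrimidine tract binding proteins bind pyrimidine-rich RNA, mostly in introns beside alternative exons, and often repress the use of those exons. PTBP1 is the form of most proliferating cells, PTBP2 is the form of developing neurons, and PTBP3 is less studied. The genes are tied together by autoregulation and cross-regulation. PTBP1 protein promotes skipping of a frame-breaking exon in its own transcript and of the matching exon in the PTBP2 transcript, and the shortened transcripts carry a premature stop codon and are usually degraded by nonsense-mediated decay. Reads from such transcripts therefore count only what remains of them.

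The series compared MDA-MB-231, an established human triple-negative breast cancer line (labelled MDA-231 Parental), with MDA-LM2, a derivative that colonises the lung at high rates. Both lines were grown untreated in a serum-supplemented DMEM medium, and total RNA of 2 samples per line was sequenced. The deposited tables name the line only, so each line gives 1 value per exon with no replicate error. Every comparison below is between these 2 sets of values, 1 per line, called libraries here. Whether the samples of a line were pooled is not stated. Reads that fit at least 1 of an event's isoforms summed to 17366605 in LM2 and 21716937 in parental cells. Among marker genes, 4 of 6 of a mesenchymal-like breast line had listed events, with 42040 reads in LM2 and 58998 in parental cells at their best covered events. CD44 gave most of these, with 38259 and 54542 reads, SPARC had 1 read in each line, and VIM and CAV1 had no listed event. The 5 neuronal markers summed to 24 and 97 reads, the 3 leukocyte markers to 5 and 3, and the 3 muscle markers had none. The 5 luminal markers summed to 375 and 672, of which ESR1 and PGR had at most 2 in either line, ERBB2 had 170 and 567, and FOXA1 had 191 and 44.

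The sequences below show the frame-breaking exons on which the description turns, as they lie in annotated transcripts (GENCODE release 29, 5′ to 3′). In the first of each pair the exon is in capitals, between the last and first 15 bases of its neighbours. In the second the exon has been skipped and the first stop codon in the resulting frame is in capitals. The PTBP1 exon lies at chr19:807869-807902 on the plus strand and is exon 11 of transcript PTBP1-203, and the PTBP2 exon lies at chr1:96806419-96806452 on the plus strand and is exon 10 of PTBP2-201.
PTBP1 34-nt exon: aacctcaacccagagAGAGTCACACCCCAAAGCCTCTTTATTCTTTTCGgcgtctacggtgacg
PTBP1 34-nt exon skipped: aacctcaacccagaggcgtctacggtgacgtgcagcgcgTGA
PTBP2 34-nt exon: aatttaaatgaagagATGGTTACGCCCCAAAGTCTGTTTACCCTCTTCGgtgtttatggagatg
PTBP2 34-nt exon skipped: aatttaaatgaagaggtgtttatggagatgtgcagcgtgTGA

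The 2 exons are 34 nt long and identical at 25 positions (73.5%). After skipping, both frames stop 24 nt past the new junction, in the 93-nt exon that follows, and 361 nt before the last exon junction of the transcript. The open frame shortens from 531 to 355 codons in PTBP1-201 and from 537 to 361 codons in PTBP2-201. The annotation holds 2 PTBP1 transcripts of the nonsense-mediated decay type, PTBP1-207 and PTBP1-219, and both stop at that same codon (chr19:808384-808386). A further transcript with the skipped junction, PTBP1-208, is of the protein-coding type. Of the 3 annotated PTBP2 transcripts with the skipped junction, all are of the processed transcript type. PTBP3 has a 34-nt exon in the same place, at chr9:112231380-112231413 on the minus strand, which shares 22 bases (64.7%) with that of PTBP1, and no event with it in the middle was analysed here.

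The other short frame-breaking pair lies at the start of the coding region. The PTBP1 31-nt exon is exon 2 (chr19:799413-799443, plus strand), and a PTBP3 exon of 34 nt is exon 2 of PTBP3-202 (chr9:112330441-112330474, minus strand). The neighbouring bases are alike in the 2 genes, and both skipped frames stop 52 nt past the junction after 20 codons.
PTBP1 31-nt exon: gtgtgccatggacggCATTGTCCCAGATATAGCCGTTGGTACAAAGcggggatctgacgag
PTBP3 34-nt exon: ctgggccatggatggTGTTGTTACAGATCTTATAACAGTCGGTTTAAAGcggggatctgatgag

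An inclusion level is the estimated share of a gene's transcripts at the event that carry the exon, from 0 to 1. The deposited level comes from all reads that fit either isoform, including those that fit both, and is given with its deposited interval, for which the sources used here give no confidence level. Reads that fit only the inclusion isoform are called inclusion reads, those that fit only the skipped isoform exclusion reads, and both together informative reads. A level from reads alone was computed from inclusion reads divided by 2, since inclusion makes a pair of junctions. The result was taken over itself plus the exclusion reads. Reads lying inside the exon also count as inclusion reads, and the divisor was the same at every exon length. This level therefore runs high for long exons, where its size is not comparable with the deposited level. Exact Clopper-Pearson 95% intervals of the share of inclusion reads and all intervals of ratios cover counting error only. Where a class had 0 reads, the share it allows is given as 3 reads of the informative total, which is a little tighter than the exact bound.

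The autoregulatory exon of PTBP1 was included in nearly all informative reads of both lines. LM2 had 1074 inclusion and 2 exclusion reads, and parental cells had 1109 and 6. The deposited level was 1.0 (0.99 to 1.0) in LM2 cells and 0.99 (0.98 to 1.0) in parental ones, and inclusion reads made up 99.8% (99.3 to 100) and 99.5% (98.8 to 99.8) of informative reads. The intervals overlapped, so skipping was rare in each library and no difference between them was detectable at this depth. A second event joins the same exon to the far upstream 31-nt exon, with 76 inclusion reads in LM2, 99 in parental cells and 0 exclusion reads in each, which allows an exclusion share of up to 3.95% and 3.03%. Its deposited level was 0.96 (0.89 to 1.0) in each line.

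The matching PTBP2 exon showed the opposite use, being skipped in most informative reads. LM2 had 3 inclusion and 26 exclusion reads and parental cells had 5 and 29. The deposited level was 0.09 (0.03 to 0.20) against 0.12 (0.06 to 0.22), and the level from reads alone 0.0545 against 0.0794. Both lines were low and their intervals overlapped widely. The share of inclusion reads was 10.3% (2.19 to 27.4) in LM2 cells and 14.7% (4.95 to 31.1) in parental ones, and the odds of inclusion in LM2 were 0.708 times those in parental cells, with an interval from 0.0952 to 3.86. With 29 and 34 informative reads, a change of several fold in either direction could not be told from none. Set side by side within a line, the 2 paralogous exons stood at 1.0 and 0.09 in LM2 and at 0.99 and 0.12 in parental cells.

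The events around these paralogous exons have nearly equal lengths, 276 nt in PTBP1 and 267 nt in PTBP2 with the exon included. Their reads are given per kb of that length, although the PTBP2 exon was mostly skipped. PTBP1 had 5322 reads per kb of event in LM2 and 6196 in parental cells, as raw reads that fit either isoform, and PTBP2 had 209.7 and 295.9. In each library the PTBP1 event had the higher value, but the size of the gap depended on the event chosen. Near the start of the coding region, the event of the PTBP1 31-nt exon had 1566 reads per kb in LM2 and 1937 in parental cells. That of the PTBP2 76-nt exon had 921.4 and 1232. No single ratio of PTBP1 to PTBP2 reads can be taken from these events.

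**Figure D1:**
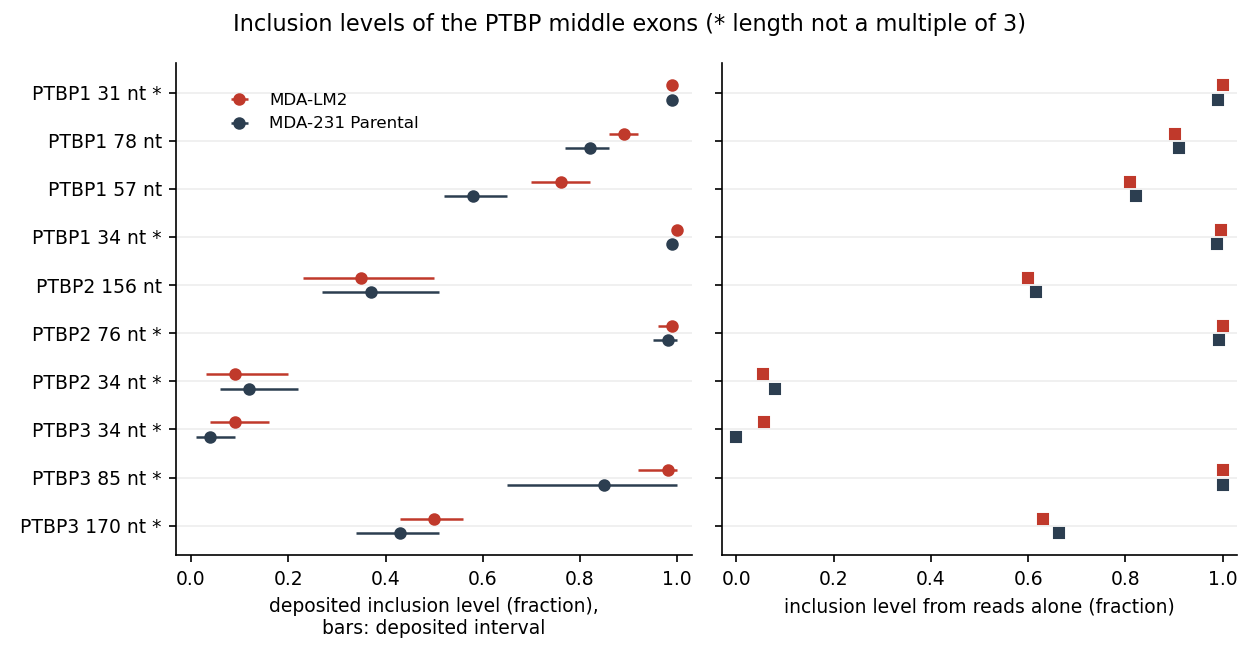
Inclusion levels of the 10 middle exons in MDA-LM2 (red) and MDA-231 Parental (dark), as deposited with the deposited interval (left, fraction from 0 to 1) and from inclusion and exclusion reads alone (right), with an asterisk at lengths that are not a multiple of 3. The PTBP1 34-nt exon stands at 1.0 and 0.99 and the PTBP2 34-nt exon at 0.09 and 0.12, and of the 10 only the PTBP1 57-nt exon has deposited intervals that do not overlap.

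The 31-nt exon of PTBP1, which lies just after the start codon, was also included nearly always. It had 313 inclusion and 0 exclusion reads in LM2, which allows an exclusion share of up to 0.958%, and 380 and 2 in parental cells. Each line had a deposited level of 0.99 (0.98 to 1.0). The 76-nt exon 3 of PTBP2 (chr1:96751425-96751500), coding and frame-breaking, behaved alike, with 176 inclusion and 0 exclusion reads in LM2 and 241 and 1 in parental cells, and deposited levels of 0.99 (0.96 to 1.0) and 0.98 (0.95 to 1.0). Together with the 34-nt exon of PTBP1, these were the 3 of 10 exons at 0.95 or more in both lines, a range that holds 15.8% of all 14109 exons that could be compared.

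Exon 9 of PTBP1 sets the length of the linker between the middle pair of its RNA recognition motifs, and its skipping in mammals is known to weaken repression of some target exons. It has a long version of 78 nt (chr19:805492-805569, plus strand) and a version of 57 nt with a later 3′ splice site (chr19:805513-805569). Skipping them keeps the frame and removes 26 and 19 codons. The long exon is printed here with the 21 bases that the short version lacks in capitals.
PTBP1 78-nt exon: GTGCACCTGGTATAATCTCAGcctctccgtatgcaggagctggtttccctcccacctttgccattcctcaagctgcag

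The 78-nt version stood at a deposited 0.89 (0.86 to 0.92) in LM2 against 0.82 (0.77 to 0.86), with intervals that meet at 0.86. LM2 had 698 inclusion and 38 exclusion reads, and parental cells 545 and 27. For the 57-nt version the deposited level was 0.76 (0.70 to 0.82) against 0.58 (0.52 to 0.65), with 321 inclusion and 38 exclusion reads against 248 and 27. This difference of 0.18 was the largest among the member exons, the only one whose deposited intervals did not overlap, and its Bayes factor, which weighs a difference between the libraries against equality, was 735.7 by the authors' deposited table. In the same table the 78-nt version had a difference of 0.07 and a Bayes factor of 1.82. The 2 events have the same exclusion reads and the same reads that fit both isoforms, so they are not separate measurements. The short version lies inside the long one and shares its end, so reads of the long version in the shared part also fit it. The levels of 0.76 and 0.58 are therefore not the use of the later 3′ splice site alone.

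Inclusion and exclusion reads alone showed no such difference for exon 9. Inclusion reads were 94.8% (93 to 96.3) of informative reads in LM2 and 95.3% (93.2 to 96.9) in parental cells for the long version, and 89.4% (85.8 to 92.4) and 90.2% (86 to 93.4) for the short one. The level from reads alone was 0.902 against 0.910 and 0.809 against 0.821. The odds ratio of LM2 over parental was 0.915 (0.527 to 1.55) and 0.924 (0.525 to 1.59), so both estimates lay below 1, with intervals that hold 1, while the deposited levels were higher in LM2. The libraries differed in the reads that fit both isoforms, which lie in the flanking exons of 175 and 149 nt. These were 987 in LM2 and 1507 in parental cells, 0.819 times as many in LM2 after scaling to library totals (0.755 to 0.888), while inclusion reads were 1.60 times (1.43 to 1.79) and 1.62 times (1.37 to 1.92) as many. Per inclusion read, the short event had 3.07 such reads in LM2 and 6.08 in parental cells. In the deposited assignment of reads to isoforms, 239 reads of the short event went to skipping in LM2 and 657 in parental cells, many more than the 38 and 27 exclusion reads. The part of the flanking reads in the deposited difference was not tested.

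A shift of that size in the ratio of reads fitting both isoforms to inclusion reads was uncommon in the series. Over 6565 compared exons with at least 20 inclusion reads and 20 reads fitting both isoforms in each library, this ratio had a median log2 difference between LM2 and parental cells of -0.05. It was -0.98 for the 57-nt and -0.97 for the 78-nt version, and 3.12% and 3.43% of these exons had a value as low. The PTBP3 170-nt exon stood at -0.83 and the PTBP1 34-nt exon at -0.55, while the PTBP1 31-nt exon stood at -0.20 and the PTBP2 76-nt exon at 0.12.

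**Figure D2:**
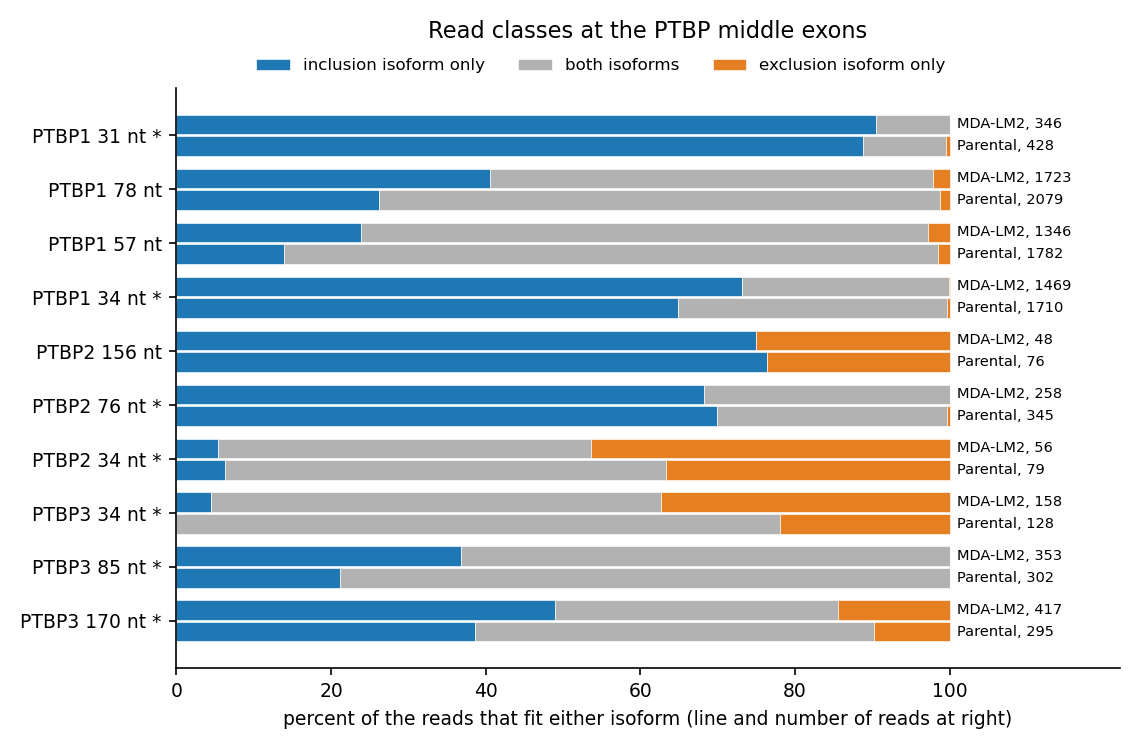
Reads that fit the inclusion isoform only (blue), both isoforms (grey) or the exclusion isoform only (orange), in percent of the reads that fit either isoform, for each middle exon (asterisk: length not a multiple of 3) and line, with the number of those reads at right. The grey share of the PTBP1 57-nt and 78-nt versions is larger in parental cells, with 1507 reads against 987, while the orange share is small in both.

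PTBP2 had 1 exon whose length is a multiple of 3, of 156 nt (chr1:96749531-96749686, plus strand), which matched no annotated exon. Its sequence was not available here, so whether it holds a stop codon in frame was not tested. It lies between exons 2 and 3, and 6 annotated transcripts have the junction without it. LM2 had 36 inclusion and 12 exclusion reads and parental cells 58 and 18. Its deposited level was 0.35 (0.23 to 0.50) in LM2 cells and 0.37 (0.27 to 0.51) in parental ones, while reads alone gave 0.600 and 0.617. Both libraries were at intermediate inclusion with overlapping intervals. No read fitted both isoforms, where the flanking exons are 31 and 76 nt long, and 98.4% of the reads in the region fitted neither isoform in each line.

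The PTBP3 exons near the start of the gene decide which start codon is in frame. PTBP3-202, with the 34-nt exon, starts in the first exon and has 555 codons, while PTBP3-205, without it, starts in the 85-nt exon and has 524. PTBP3-203, which also lacks the 170-nt exon, starts at the end of the 85-nt exon and has 457. Skipping is thus annotated in protein-coding transcripts of PTBP3, through a later start, whereas from the first start codon it leaves 20 codons.

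The upstream 34-nt exon of PTBP3 was mostly skipped in both lines. LM2 had 7 inclusion and 59 exclusion reads, and parental cells had 0 and 28, which allows an inclusion share of up to 10.7%. The deposited level was 0.09 (0.04 to 0.16) against 0.04 (0.01 to 0.09). Inclusion reads were seen in LM2 only, but the exact interval of the odds ratio reached down to 0.631, with no upper bound. With the PTBP2 34-nt exon it made 2 of 10 exons at 0.15 or less in both lines, where 34.2% of all compared exons lie.

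The 170-nt exon of PTBP3 (chr9:112275844-112276013, minus strand) was the most evenly split annotated exon of the family. It had 204 inclusion and 60 exclusion reads in LM2 and 114 and 29 in parental cells. The deposited level was 0.50 (0.43 to 0.56) against 0.43 (0.34 to 0.51), and reads alone gave 0.630 against 0.663, with an odds ratio of 0.871 (0.505 to 1.46). Again the deposited level was higher in LM2 and the level from reads alone was not, and reads fitting both isoforms were 0.75 per inclusion read in LM2 and 1.33 in parental cells. Skipping it in PTBP3-202 stops the frame 20 nt past the junction.

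The 85-nt exon of PTBP3 (chr9:112297832-112297916, minus strand) was measured in an event that joins the first exon to the 147-nt exon and passes over the 170-nt exon. It had 130 inclusion reads in LM2 and 64 in parental cells, and 0 exclusion reads in each, which allows an exclusion share of up to 2.31% and 4.69%. The deposited level was 0.98 (0.92 to 1.0) against 0.85 (0.65 to 1.0). The wide parental interval held the LM2 level, and the exon was left out of the calls below because no exclusion read was seen.

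No PTBP exon was called different between the lines, out of the 9 that had 10 or more informative reads per library and 1 or more of each kind over both. A call required a level difference of 0.2 or more and a Bayes factor of 10 or more in the authors' deposited table, a rule that 1.25% of the 14109 comparable exons passed. With a difference of at least 0.1 in that table, 1 of 9 passed, the 57-nt version of PTBP1 exon 9, against 2.07% of all exons. The exact interval of the odds ratio of inclusion to exclusion reads held 1 for all 9, whereas it did not for 6.21% of all exons. The median difference of the 9 exons was 0.01, against 0 over all exons, and the median log2 odds ratio from reads was -0.11 against 0.02. Frame-breaking lengths made up 6 of the 9 exons and 58.2% of all. The 57-nt version was 1 of 292 exons in the series that passed at 0.1, and 94 of those, like it, had levels from reads alone that differed by under 0.05.

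**Figure D3:**
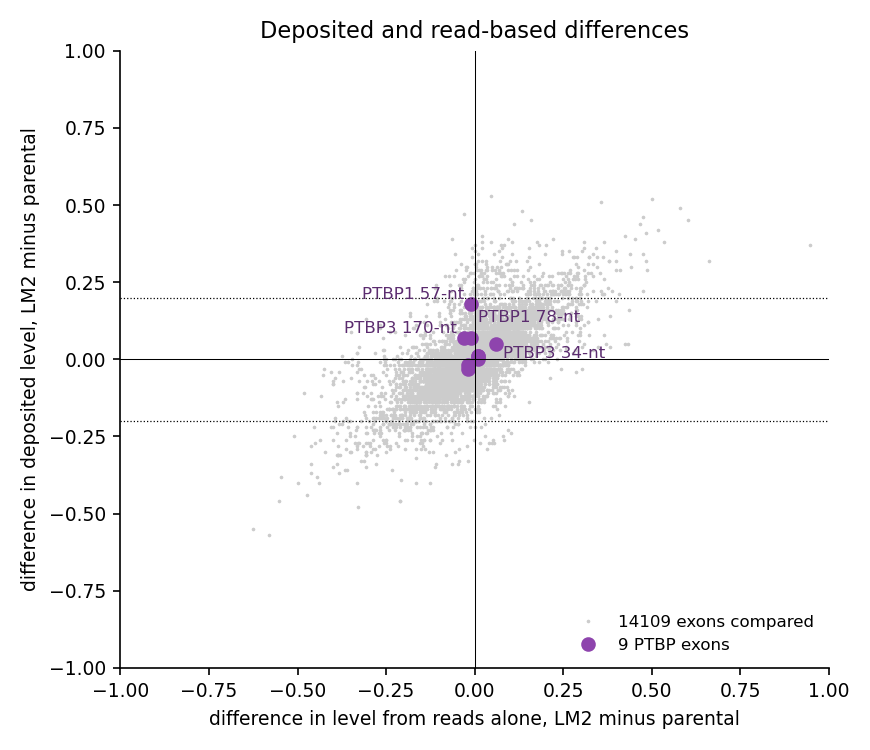
Difference in inclusion level, LM2 minus parental, from reads alone (horizontal) and as deposited (vertical), for 14109 compared exons (grey) and the 9 PTBP exons (purple), with dotted lines at a difference of 0.2. The PTBP1 57-nt version lies at 0.18 on the deposited axis and at -0.01 on the read axis.

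PTBP3 had more reads in LM2 than in parental cells. At its best covered event, that of the 170-nt exon, 417 reads fitted either isoform in LM2 and 295 in parental cells, which is 1.77-fold more (1.52 to 2.06) once library totals are taken into account. Its other events had ratios of 1.46 (1.25 to 1.71) for the 85-nt exon and 1.54 (1.21 to 1.96) for the 34-nt exon, so all 3 were higher in LM2. These events share flanking exons and their reads are not independent. Inclusion reads of the 170-nt and 85-nt exons were 2.24 times (1.77 to 2.84) and 2.54 times (1.87 to 3.48) as many in LM2, and reads that fit both isoforms 1.26 times (0.999 to 1.59) and 1.17 times (0.972 to 1.41).

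PTBP1 and PTBP2 had similar read numbers in both libraries after scaling. PTBP1 had 1723 reads in LM2 and 2079 in parental cells at its best covered event, a scaled ratio of 1.04 (0.972 to 1.11). PTBP2 had 258 and 345, a ratio of 0.935 (0.793 to 1.10). PTBP3 was the 1 of 3 genes at least 1.5-fold higher in LM2 with an interval above 1, where 8.21% of 10213 measured genes were so, and 5.11% of genes had a ratio as high as that of PTBP3. The median gene stood at -0.12 on the log2 scale, and relative to it PTBP1 was at 0.17, PTBP2 at 0.02 and PTBP3 at 0.94. In bulk RNA, fewer cells with a transcript and less transcript per cell cannot be told apart.

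**Figure D4:**
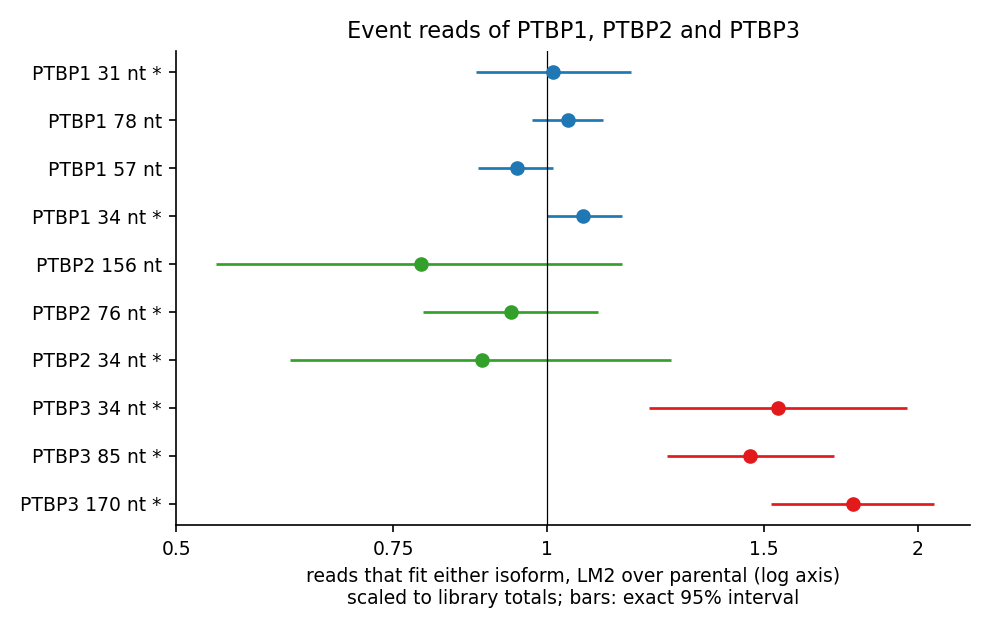
Ratio of LM2 over parental in the reads that fit either isoform at each middle exon's event (log axis), scaled to library totals, with exact 95% intervals for counting error, coloured by gene, and an asterisk at lengths that are not a multiple of 3. The PTBP3 events lie at 1.46 to 1.77, and the intervals of the PTBP2 events hold 1.

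Partners and competitors of the PTB proteins had no called exon. Of 18 listed genes, 12 had 37 comparable exons, with a median difference of 0, and at a difference of 0.1 there was still none. The best covered exons of intermediate level were in PCBP2, which binds cytosine-rich RNA. Its 93-nt exon (chr12:53464760-53464852) was at 0.78 (0.73 to 0.82) in LM2 cells and 0.79 (0.75 to 0.83) in parental ones, and its 39-nt exon (chr12:53467805-53467843) at 0.84 in each. In event reads, 15 of these genes were measured. MBNL1, a splicing regulator of muscle and stem cell exons, was higher at 1.58 (1.52 to 1.64). It was the 1 of 15 at least 1.5-fold higher with an interval above 1, where 8.21% of all genes were so. Lower by at least 1.5-fold were RAVER2, of the raver family of PTB co-repressors, at 0.591 (0.429 to 0.808), NONO, a partner of the PTB-associated factor SFPQ, at 0.550 (0.522 to 0.579), and SRRM3, an activator of neuronal microexons, at 0.471 (0.278 to 0.773). Among all genes 18.5% were that much lower. RAVER1, which binds PTBP1 directly, was at 0.860 (0.758 to 0.974), and MATR3, another direct partner, at 0.953 (0.924 to 0.982).

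Genes known for PTB-regulated exons, PTBP2 among them, also had no called exon among 70 compared in 24 of 34 listed genes, and a median difference of 0. The compared exons need not be the regulated ones. At a difference of 0.1 in the authors' deposited table, 3 were higher and 2 lower, which is 5 of 70, where 2.07% of all exons passed. The interval of the read odds ratio excluded 1 for 10 of the 70, against 6.21% of all exons. Of the 5, those in TPM1 and RTN4 are described here. A 76-nt exon of TPM1, an alpha tropomyosin gene (chr15:63061198-63061273), named after its values were seen, was at 0.85 (0.81 to 0.89) against 0.97 (0.95 to 0.99). It had 429 inclusion and 35 exclusion reads in LM2 and 565 and 7 in parental cells, and the interval of its odds ratio, 0.0565 to 0.352, excluded 1. The 2400-nt exon of RTN4 that marks the Nogo-A form was at a deposited 0.40 against 0.29. It had 2789 inclusion and 2 exclusion reads in LM2 and 2187 and 9 in parental cells. Its level from reads alone was 0.999 against 0.992, which the length of the exon raises. The interval of its odds ratio, 1.19 to 54.6, excluded 1. The other exon that coverage selects, of 174 nt in FLNA (filamin A), was at a deposited 0.77 against 0.79. It had 3830 inclusion and 5 exclusion reads in LM2 and 5077 and 6 in parental cells. Its level from reads alone was 0.997 against 0.998, so few reads showed skipping directly.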

How the data were processed

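Reads were aligned with STAR 2.7 to hg38, per the submitters' processing notes, and MISO was used for skipped-exon events, per the file headers. The sources used here do not give the event annotation, the MISO settings or how reads shared by paralogs were treated. They also do not say whether or how replicates were combined, nor whether samples came from separate cultures. In the deposited tables the inclusion level is a fraction and the read classes are raw counts. In the authors' deposited comparison the difference is a score, LM2 minus parental, and the Bayes factor is a ratio. Read classes, levels from reads, exact intervals and ratios were computed with Python 3.11.15, pandas 2.3.3 and SciPy 1.17.1, and the odds ratio interval was tested on simulated data. For odds ratios 0.5 was added to each count. Genes entered the comparison of reads with at least 20 reads over both libraries, at the event with most reads. Of events with the same middle exon, that with most informative reads was used. Sequences are from GENCODE transcripts, and open frames were read from the annotated start codon. Median informative reads per compared exon were 74 in LM2 and 92 in parental cells. Described in full were frame-breaking exons and those under 0.95 in either line, and in the other lists the called exons or else the 2 best covered of intermediate level. Members and lists were chosen with earlier results of these data known. Alternatives were other thresholds, read minimums, levels from reads and scalings. Some exons and genes of the list of PTB-regulated genes are counted but not reported here by name.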

Additional observations from a re-analysis of the deposited data

How the results depend on the processing

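No paired analysis was possible because the deposited tables name no replicate, and no replicate could be left out for the same reason. The count of 0 called member exons held with a Bayes factor minimum of 5, no read minimum, a minimum of 20 reads and every event counted, and became 1 of 9 with a difference of 0.1, which 2.07% of all exons passed. With that difference 0 became 5 of 70 in the genes with PTB-regulated exons and stayed 0 of 37 in the partner genes. The median difference of the 10 exons was 0.03 as deposited and 0 from reads alone. For the 57-nt version of PTBP1 exon 9 it was 0.18 as deposited and -0.01 from reads alone, for the 78-nt version 0.07 and -0.01, for the PTBP3 170-nt exon 0.07 and -0.03, and for the PTBP3 85-nt exon 0.13 and 0; the cause was not tested. The log2 read ratio of PTBP3 was 0.82 at its best event, 0.68 summed over its exons and 0.94 relative to the median gene, and that of PTBP2 was -0.10, -0.14 and 0.02. Few informative reads limit the 34-nt exons of PTBP2 (29 and 34 reads) and PTBP3 (66 and 28).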

Other observations

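Event reads of several genes known for PTB-regulated exons were lower in LM2, at a share near that of all genes. Of 29 measured, 6 fell short of parental cells by 1.5-fold or more, with intervals below 1, and 0 exceeded them by that much, where 18.5% of all genes were so lower and 8.21% so higher, and the median log2 ratio was -0.10, against -0.12 over all genes. DLG4, a postsynaptic scaffold, had 5 reads in LM2 and 83 in parental cells, a ratio of 0.0753 (0.0238 to 0.183). INSR, the insulin receptor, had 33 and 203, a ratio of 0.203 (0.136 to 0.295). GABBR1, a subunit of the GABA-B receptor, was at 0.355 (0.208 to 0.583), CALD1, the actin-binding caldesmon, at 0.434 (0.387 to 0.486), and NUMB, a Notch inhibitor, at 0.667 (0.629 to 0.706). These values are from 1 event per gene in 1 library per line.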
